A study of Homo sapiens with 12 samples.

Results

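Interferon-stimulated genes were followed gene by gene through a knockdown of MARK2 in 3 lung cancer cell lines. A list of 47 such genes was matched to the array by gene symbol, and 45 of the 47 had a probe set of their own. All 45 reached a log2 signal of 5 on at least 2 arrays and were tested among 16205 genes, out of 18132 genes with a probe set. For a gene with several probe sets the brightest on average was used, and the other sets were kept to see whether they gave the same change. STAT2 and USP18 were not analysed here.

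MARK2 is a kinase that phosphorylates microtubule-associated proteins, and the series relates it to the DNA damage response and to cisplatin. Each group had 2 arrays, described as biological replicates. The groups were H1993 cells with a hairpin against MARK2 and H1993 cells with the empty lentiviral vector pLKO, and the same pair of groups in H1693 and in H1650, which makes 12 arrays in all. All 3 are established lung adenocarcinoma lines, picked by the study for overexpressing MARK2, and both arms had lentiviral transduction. The control vector carried no hairpin, so loss of MARK2 and a response to any hairpin cannot be told apart here, and the sources used here do not give the hairpin sequences or their number.

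Interferons are secreted proteins that cells release when they sense foreign or misplaced nucleic acid. Type I and type III interferons act through JAK kinases on a transcription factor complex that contains IRF9 and binds the interferon-stimulated response element in the promoters of its targets. Many targets of interferon gamma carry a separate element called GAS. The targets encode proteins that bind viral RNA, block viral entry, modify other proteins with ISG15 or attract immune cells, and tumour lines differ in how highly they express them without added interferon.

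The knockdown could be read from MARK2 itself in H1993 and H1693. In H1993 the MARK2 signal was 6.76 and 6.77 in the knockdown arrays, against 9.17 and 9.06 in the control arrays, a change of -2.35 (SE 0.16, adjusted p = 6.47e-06). In H1693 it was 6.62 and 6.57 in the knockdown arrays, against 7.76 and 7.97 in the control arrays, a change of -1.27 (SE 0.16, adjusted p = 0.000258). In H1650 it was 5.92 and 5.37 in the knockdown arrays, against 6.07 and 5.80 in the control arrays, and the change of -0.29 (SE 0.16, adjusted p = 0.156) did not pass the threshold of 0.05.

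RNA integrity moved with the groups in H1650. The GAPDH control probe sets gave a 3' minus 5' log2 difference of 6.82 ± 0.07 in H1650 knockdown arrays and 2.68 ± 0.56 in H1650 control arrays (SD, n = 2 each), while no array of H1993 or H1693 was above 0.02. Its part in the H1650 results was not tested. EPCAM was between 12.5 and 13.4 on every array and the leukocyte marker PTPRC between 3.47 and 4.50. Other cell type markers differed between lines. In control arrays the leukocyte marker CD14 averaged 8.21 in H1993, and LCP1 averaged 9.23 in H1693. The fibroblast marker COL3A1 averaged 10.42 in H1693 and 10.41 in H1650 controls. The epithelial marker KRT7 averaged 6.70 in H1693 controls, against 14.16 in H1993 controls. The lung lineage markers NKX2-1, SFTPB, SFTPC and NAPSA lay between 6.55 and 8.13 on every array, below the median of all genes tested, and in no line were they high. Leukocyte genes that passed the threshold were 1 of 4 in H1993 and in H1693 and 2 of 4 in H1650, fibroblast genes 1 of 3 in H1993, 2 of 3 in H1693 and none in H1650, and endothelial genes none, and the part of these in the results was not tested. In H1650 KRT8, an epithelial keratin, averaged 7.19 in knockdown arrays and 11.66 in control arrays.

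The promoters of the genes described here carry the element bound by the IRF9 complex more often than those of genes at large. The core searched was GAAANNGAAA on either strand, counting overlapping matches, in the 250 bases before each start site listed by RefSeq on GRCh38.p14. With a gene counted once whatever its number of start sites, it was found for 24 of the 39 members with a listed promoter (61.5%), against 1014 of 27305 genes in the table (3.71%). The GAS letters TTCNNNGAA were found for 13 of the 39 members (33.3%), against 8.09% of the genes in the table. Of the members that rose in all 3 lines, 8 of 12 with a promoter held the response element core (66.7%), and 16 of 27 other members did (59.3%). A match describes the letters and is not evidence of binding in these cells.

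The stretches that end just before the start site are shown for 4 genes that rose in every line (ISG15, IFI44, IFI6 and DDX60), for CXCL10, whose change passed the threshold in H1650 alone, and for LGALS3BP, which rose in H1993 and H1693 and fell in H1650. Capitals mark matches to the core, read 5' to 3' on the strand of the gene. ISG15 lies at chr1:1013374-1013496 on the plus strand and IFI44 at chr1:78649731-78649830 on the plus strand, by the later of its 2 listed start sites. On the minus strand, IFI6 lies at chr1:27672193-27672358 and DDX60 at chr4:168318753-168318852. CXCL10 lies at chr4:76023498-76023728 and LGALS3BP at chr17:78979924-78980023, also on the minus strand.
ISG15: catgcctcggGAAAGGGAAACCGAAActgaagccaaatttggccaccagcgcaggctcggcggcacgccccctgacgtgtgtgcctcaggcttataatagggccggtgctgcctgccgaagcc
IFI44: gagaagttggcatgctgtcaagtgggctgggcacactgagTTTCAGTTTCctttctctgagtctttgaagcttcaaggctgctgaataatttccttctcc
IFI6: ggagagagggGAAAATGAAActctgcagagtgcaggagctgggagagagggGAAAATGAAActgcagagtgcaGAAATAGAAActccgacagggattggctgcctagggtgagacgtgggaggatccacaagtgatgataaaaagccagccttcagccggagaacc
DDX60: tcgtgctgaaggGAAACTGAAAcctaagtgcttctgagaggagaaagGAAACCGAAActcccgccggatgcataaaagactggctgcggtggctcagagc
CXCL10: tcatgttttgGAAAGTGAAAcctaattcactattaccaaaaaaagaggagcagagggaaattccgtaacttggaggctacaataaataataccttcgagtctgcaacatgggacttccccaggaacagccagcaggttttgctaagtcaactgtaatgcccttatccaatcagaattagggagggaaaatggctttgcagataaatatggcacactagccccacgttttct
LGALS3BP: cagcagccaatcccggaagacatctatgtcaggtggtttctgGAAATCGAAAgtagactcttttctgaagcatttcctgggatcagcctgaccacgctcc
ISG15 had 2 overlapping matches, IFI6 had 3 and DDX60 had 2, while IFI44, CXCL10 and LGALS3BP had 1 each. In IFI44 the match reads on the opposite strand, so its letters appear as the reverse complement. LGALS3BP and CXCL10, whose changes were unlike those of the other 4 genes, held the same core within the same window.

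Most members rose after MARK2 knockdown in H1993 and H1650, and a minority did in H1693. In H1993, 28 of 45 rose and 2 fell at an adjusted p under 0.05, against 18.9% of all genes tested that rose and 14.5% that fell. In H1693, 18 rose and 1 fell, against 17.1% and 15.9% of all genes. In H1650, 37 rose and 3 fell, against 36.7% and 16.7% of all genes, in the line where MARK2 itself did not pass the threshold and RNA integrity differed between the groups. With a change of at least 1.5-fold also required, 18, 10 and 32 members rose in H1993, H1693 and H1650, and 0, 1 and 3 fell. By that rule 7.47%, 5.55% and 14.4% of all genes tested rose in these lines, and 3.99%, 4.92% and 9.18% fell.

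The median change of the 45 members was 0.43 (log2) in H1993, where the median of all genes tested was 0.02. It was 0.18 in H1693 against -0.02 for all genes, and 0.99 in H1650 against 0.15 for all genes. The H1650 values thus include an upward shift of the centre of the all-gene distribution. Its lower tail reached further down, with a 0.05 quantile of -0.96 in H1650 against -0.53 in H1993. With every array centred on its median the H1650 medians were 0.94 for members and 0.10 for all genes. The same centring gave 2452 genes higher and 3180 lower in H1993, where the deposited values gave 3064 and 2354, while 26 members were higher and 2 lower. Between the lower and the upper quartile of the members the H1993 change ran from 0.08 to 0.78, the H1693 change from 0.06 to 0.56 and the H1650 change from 0.50 to 1.32. The plot of cumulative distributions shows the member medians to the right of the all-gene medians, with the widest gap in H1650. In the lower tail of H1650 the members lie left of all genes, where LGALS3BP and BST2 fell. In RNA from whole cultures, more RNA in each cell and more cells with a high level cannot be told apart.

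**Figure D1:**
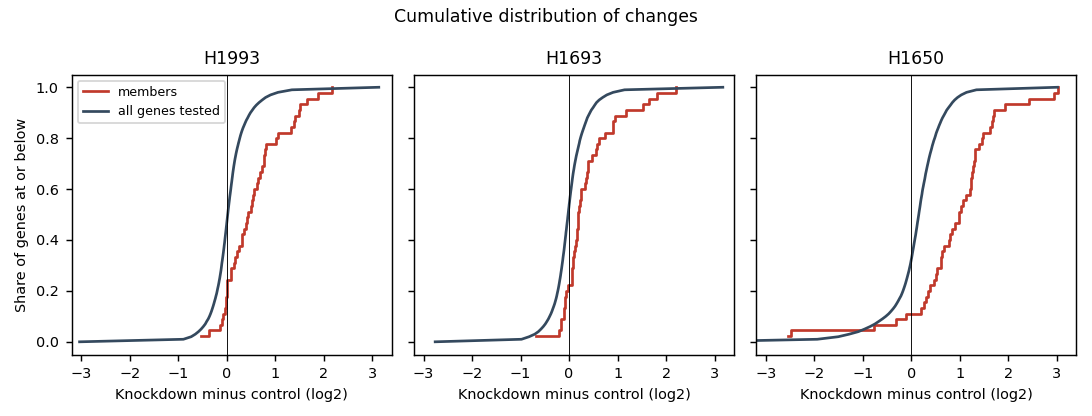
Cumulative share of genes (y axis) at or below each log2 change, knockdown minus control (x axis), for the 45 members (red steps) and all 16205 genes tested (dark line), in H1993, H1693 and H1650. The member medians of 0.43, 0.18 and 0.99 lie to the right of the all-gene medians of 0.02, -0.02 and 0.15.

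Of the 45 members, 4 passed the filter on dim genes through H1650. GBP1, BST2, RTP4 and CXCL11 reached the log2 signal of 5 on the required 2 arrays only with the H1650 arrays counted, and each of them passed the threshold in H1650 and in no other line. CXCL11 reached it on the H1650 knockdown arrays alone, the group where it was high, so its calls do not count as support for a rise. Over the other 41 members, 28 rose in H1993, 18 in H1693 and 34 in H1650, with medians of 0.51, 0.21 and 0.97. Of all genes tested, 18.9%, 17.1% and 36.7% rose in these lines, with medians of 0.02, -0.02 and 0.15. Those calls and medians were not computed over only the genes that reach the filter without H1650. Values under 5 lie near the array's background, where differences are compressed.

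Across lines, 14 members (31.1%) rose in all 3, against 5.42% of all genes tested, and no member fell in all 3, against 2.23%. The 14 were ISG15, IFIT2, IFIT5, GBP2, IFI44, IFI6, IFI35, RSAD2, EPSTI1, SAMD9, SAMD9L, DDX60, TRANK1 and IRF9. In each of these 14, both knockdown arrays lay above both control arrays in every line, which was not counted over all genes. In H1650, another probe set of IFIT2, of IFI35 and of IRF9 changed in the opposite direction. A further 15 rose in 2 lines (33.3%, against 12.3% of all genes) and 11 in 1 line (24.4%, against 31.9%). IFITM2, IFITM3, OAS3 and TRIM22 passed the threshold in none (8.89%, against 30.3%). HERC5, OAS1, LGALS3BP, SP100 and IRF1 passed it in opposite directions in different lines (11.1%, against 14.2%), a share near that of all genes. No pair of these lines shared control arrays. The H1650 calls come from the line where MARK2 did not pass the threshold and RNA integrity differed between the groups. Leaving H1650 aside, 16 members rose in both H1993 and H1693 (35.6%, against 8.38% of all genes).

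**Figure D2:**
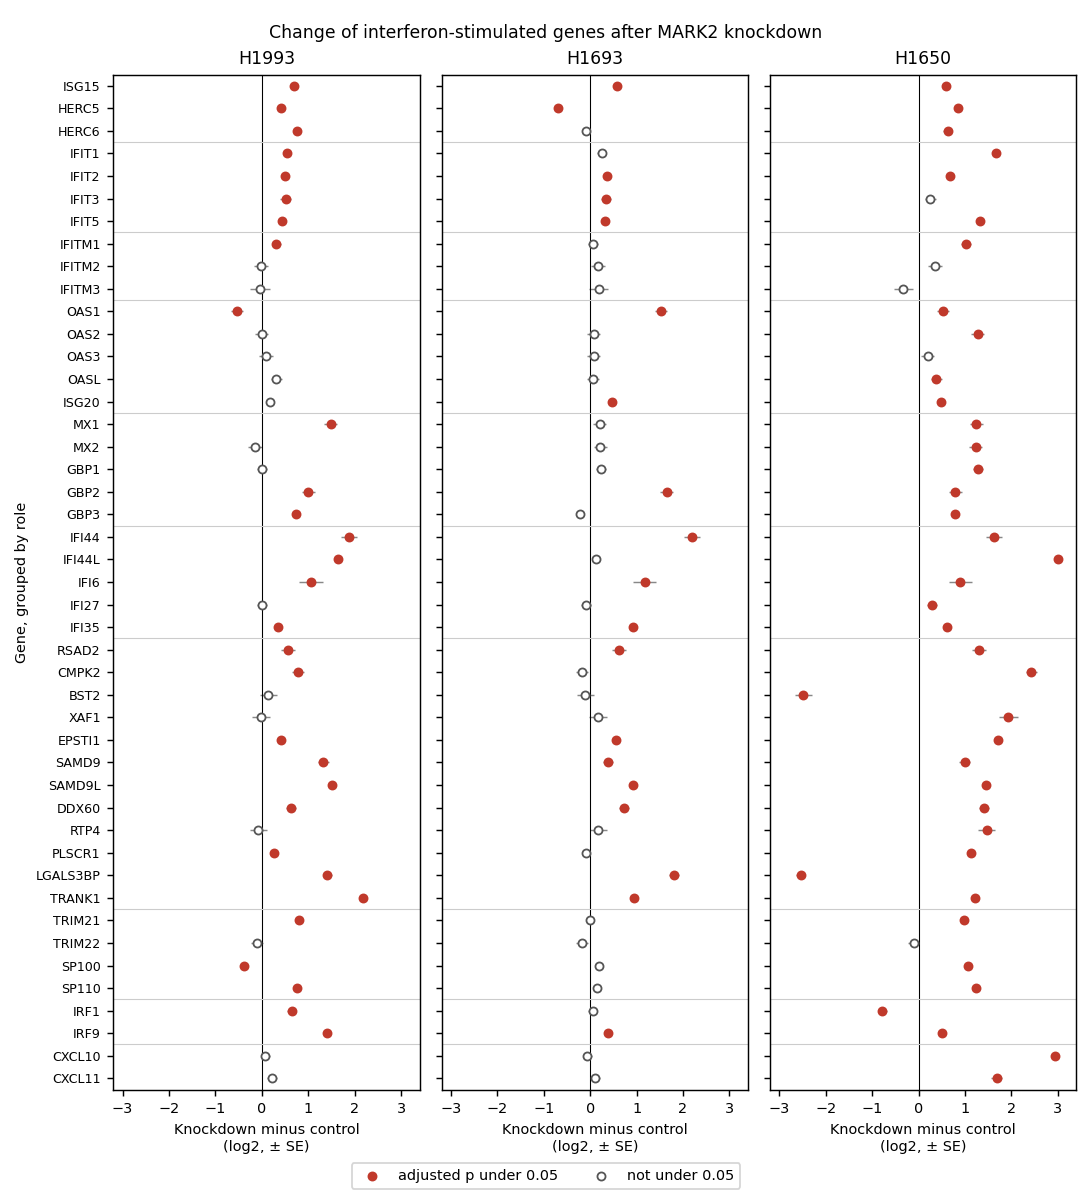
Log2 change, knockdown minus control, with its standard error from the fit (x axis) for the 45 members grouped by role (y axis) in H1993, H1693 and H1650; filled points have an adjusted p under 0.05 and open points do not. Filled points right of 0 number 28, 18 and 37, and the 3 filled points left of 0 in H1650 are LGALS3BP, BST2 and IRF1.

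The upstream end of the pathway was read first. Of 21 interferon genes listed, 17 had a probe set of their own and 5 reached the filter. IFNB1, the type I interferon that most cell types can make, had a log2 signal of 6.50 and 6.77 in H1650 knockdown arrays, against 4.53 and 4.58 in H1650 control arrays. That rise of 2.09 (SE 0.13) was read from a control level under 5. IFNB1 passed the filter through those H1650 knockdown arrays alone, where it was high, so no p-value is given for it. IFNB1 stayed under 5 in H1993 and H1693, with means of 3.96 and 3.96 in the knockdown arrays and 3.87 and 3.98 in the control arrays of these lines.

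IFNE, an interferon of epithelial tissues, rose in H1993 by 1.68 (adjusted p = 1.42e-05) and in H1650 by 0.67 (adjusted p = 0.00184). Its H1693 means were 4.48 in knockdown and 4.20 in control arrays. IFNG, the gene of interferon gamma, changed by -0.41 in H1993 (adjusted p = 0.00873) at means of 5.10 in knockdown and 5.51 in control arrays. IFNA14 and IFNL1 passed the threshold in none of the lines.

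All 6 receptor genes were tested, and 3 rose and 2 fell in H1993, 1 rose and 2 fell in H1693, and 4 rose and 2 fell in H1650. These counts, and those of the signalling genes and negative regulators that follow, stand beside 18.9% higher and 14.5% lower among all genes in H1993, 17.1% and 15.9% in H1693, and 36.7% and 16.7% in H1650. The groups are small, and nothing is read from the counts about a group as a whole. IFNAR1, a chain of the type I receptor, fell in every line, with changes of -0.44 in H1993, -0.28 in H1693 and -0.68 in H1650. IFNAR2, the other chain, rose by 1.02 in H1650 and did not pass the threshold in H1993 or H1693. IFNGR1, the ligand-binding chain of the gamma receptor, rose in every line, by 0.79, 0.26 and 1.11 in H1993, H1693 and H1650. For the type III receptor, IFNLR1 changed by -1.27 in H1993 and by 0.57 in H1650, and IL10RB by 0.81 in H1993 and by -1.57 in H1650, each past the threshold.

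Of the signalling genes, 11 were tested, and 3 rose in H1993, 3 rose in H1693, and 3 rose and 3 fell in H1650. JAK1, the kinase that receptors for type I, II and III interferon share, rose in every line, by 0.57, 0.26 and 0.31 in H1993, H1693 and H1650. IRF7, which amplifies interferon production, rose by 0.59 in H1993 and 0.38 in H1693, and STAT3 by 0.51 and 0.36. In H1650, IRF2 rose by 1.08 and TBK1, a kinase of the nucleic acid sensing pathways, by 0.60, whereas IRF3, its substrate, fell, with a change of -0.74. Among 9 negative regulators, 2 rose and 1 fell in H1993, 1 rose in H1693, and 3 rose and 4 fell in H1650. SOCS1, an inhibitor of JAK kinases, rose by 0.62 in H1993 and 0.63 in H1693 and fell in H1650, with a change of -0.60.

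IRF9, the DNA-binding subunit of the complex activated by type I and III interferons, rose in all 3 lines. In H1993 its log2 signal was 9.80 and 9.84 in the knockdown arrays, against 8.38 and 8.47 in the control arrays, a change of 1.39 (SE 0.06, adjusted p = 6.79e-07). H1693 values were 11.59 and 11.61 in the knockdown arrays, against 11.23 and 11.19 in the control arrays, and in H1650 12.05 and 12.10 in the knockdown arrays, against 11.59 and 11.55 in the control arrays. The changes there were 0.39 (SE 0.06, adjusted p = 0.00108) in H1693 and 0.50 (SE 0.06, adjusted p = 0.000109) in H1650, and the knockdown and control arrays did not overlap in any line. The other probe sets of IRF9 had changes above 0 in H1993 and H1693 too, but in H1650 they ran down to -0.53, and the mean over its 4 sets changed by 0.01 with adjusted p = 0.936.

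IRF1, a transcription factor induced early by interferon gamma, differed in direction between lines. Its signal was 9.77 and 9.68 in H1993 knockdown arrays, against 9.06 and 9.10 in H1993 control arrays, a rise of 0.65 (SE 0.10, adjusted p = 0.000777). The H1693 signal was 9.42 and 9.47 in the knockdown arrays, against 9.38 and 9.41 in the control arrays, a difference of 0.05 (adjusted p = 0.749). H1650 values were 8.93 and 9.25 in the knockdown arrays, against 9.93 and 9.81 in the control arrays, a change of -0.78 (SE 0.10, adjusted p = 0.000123). The fall in H1650 rested on the brightest probe set, since the 4 sets of IRF1 ran from -0.78 to 0.71 there and their mean changed by 0.04 with adjusted p = 0.751.

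ISG15, a ubiquitin-like protein that is attached to other proteins, rose in every line. Its signal was 12.67 and 12.68 in H1993 knockdown arrays, against 11.96 and 12.02 in H1993 control arrays. H1693 gave 11.87 and 11.92 in the knockdown arrays, against 11.29 and 11.33 in the control arrays, and in H1650 13.69 and 13.77 in the knockdown arrays, against 13.10 and 13.16 in the control arrays. The rises were 0.68 (SE 0.06, adjusted p = 3.71e-05) in H1993, 0.58 (SE 0.06, adjusted p = 0.000108) in H1693 and 0.60 (SE 0.06, adjusted p = 3.83e-05) in H1650, which is 1.6-fold, 1.5-fold and 1.52-fold. The test of a difference among the lines gave an adjusted p of 0.583. ISG15 was also among the brightest members, above 11 on every array.

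HERC5, the main ligase that attaches ISG15 in human cells, rose in H1993 and H1650 and fell in H1693. It had 8.64 and 8.77 in H1993 knockdown arrays, against 8.25 and 8.33 in H1993 control arrays, a rise of 0.42 (SE 0.08, adjusted p = 0.00388). In H1693 it had 7.91 and 7.99 in the knockdown arrays, against 8.72 and 8.56 in the control arrays, a change of -0.69 (SE 0.08, adjusted p = 0.000217) and the only member called lower in that line. In H1650 it had 12.10 and 12.20 in the knockdown arrays, against 11.25 and 11.36 in the control arrays, a rise of 0.85 (SE 0.08, adjusted p = 2.88e-05). Its relative HERC6 rose by 0.76 in H1993 and 0.63 in H1650, with overlapping arrays in H1693. The H1993 change exceeded the H1693 change by 1.11 for HERC5 (adjusted p = 0.000237) and by 0.84 for HERC6 (adjusted p = 0.0015).

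The IFIT genes, whose proteins bind viral RNA and limit its translation, rose by a like amount in H1993, with all 4 between 0.43 and 0.55. In H1693, 3 of 4 rose, between 0.32 and 0.37, and IFIT1 changed by 0.25 (adjusted p = 0.0608). In H1650, IFIT1 rose by 1.67 and IFIT5 by 1.32, while IFIT3 changed by 0.26 (adjusted p = 0.0818). Of all genes tested, 18.9% rose in H1993, 17.1% in H1693 and 36.7% in H1650. For all 4 IFIT genes the controls of H1650 lay at least 1.47 above those of H1993, so the changes were read from different levels.

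IFIT5 had 8.07 and 8.05 in H1993 knockdown arrays, against 7.57 and 7.69 in H1993 control arrays. In H1693 it had 6.72 and 6.81 in the knockdown arrays, against 6.34 and 6.55 in the control arrays, and in H1650 10.42 and 10.42 in the knockdown arrays, against 9.04 and 9.16 in the control arrays. The H1650 rise of 1.32 (SE 0.09, adjusted p = 2.02e-06) was above the rises of 0.43 in H1993 and 0.32 in H1693, with an adjusted p of 0.000199 for the difference among lines. Without control replicate 1 of H1693, its H1693 change was 0.21 with adjusted p = 0.149, and without knockdown replicate 2 of H1693 it was 0.27 with adjusted p = 0.118. Its second probe set changed by 0.05 in H1693, and the mean of both sets by 0.18 with adjusted p = 0.0503.

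IFIT2 had 8.22 and 8.16 in H1993 knockdown arrays, against 7.62 and 7.75 in H1993 control arrays. In H1693 it had 6.77 and 6.57 in the knockdown arrays, against 6.31 and 6.29 in the control arrays, and in H1650 12.02 and 12.09 in the knockdown arrays, against 11.32 and 11.43 in the control arrays. Its changes of 0.51 (SE 0.08, adjusted p = 0.00126) in H1993, 0.37 (SE 0.08, adjusted p = 0.00812) in H1693 and 0.68 (SE 0.08, adjusted p = 0.000108) in H1650 gave an adjusted p of 0.116 for a difference among lines. Without knockdown replicate 1 of H1693 its change in that line was 0.26 with adjusted p = 0.0736. In H1650 the second probe set of IFIT2 changed by -1.52, and the mean of both sets by -0.42 with adjusted p = 0.000855, so the direction there depends on the probe set read.

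For IFIT3 in H1693 the call was lost when either H1693 knockdown array, control replicate 2 of H1693 or either H1993 knockdown array was left out, with changes between 0.20 and 0.40. In H1993 its change without control replicate 2 was 0.43 with adjusted p = 0.0501.

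The IFITM genes, whose membrane proteins restrict viral entry, gave calls for IFITM1 alone. IFITM1 rose by 0.32 (SE 0.10, adjusted p = 0.0408) in H1993 and by 1.02 (SE 0.10, adjusted p = 3.05e-05) in H1650. The H1993 call was lost when any of 5 arrays was left out, with changes of 0.20 to 0.32, and when arrays were centred on their medians. IFITM2 and IFITM3 passed the threshold in no line, and their changes ran from -0.32 for IFITM3 in H1650 to 0.35 for IFITM2 in H1650. In H1993 their arrays overlapped, and in H1693 both were above 13 in every array. IFITM2 was 13.11 and 13.05 in H1650 knockdown arrays, against 12.69 and 12.76 in H1650 control arrays, and IFITM3 was 13.03 and 13.11 in H1650 knockdown arrays, against 13.44 and 13.34 in H1650 control arrays. These H1650 groups did not overlap, with IFITM2 higher and IFITM3 lower in knockdown arrays, and the adjusted p was 0.0739 for IFITM2 and 0.225 for IFITM3.

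The OAS genes, which encode synthases of oligoadenylates that activate RNase L, moved differently from line to line. In H1993, 1 of the 5 genes of the group with ISG20 fell and none rose, against 14.5% and 18.9% of all genes. In H1693, 2 rose, and in H1650, 4 rose, against 17.1% and 36.7% of all genes. OAS1 was 8.08 and 8.08 in H1993 knockdown arrays, against 8.61 and 8.61 in H1993 control arrays, a change of -0.53 (SE 0.12, adjusted p = 0.00818). In H1693 it was 7.15 and 7.17 in the knockdown arrays, against 5.62 and 5.64 in the control arrays, a rise of 1.53 (SE 0.12, adjusted p = 1.99e-05) or 2.88-fold. The H1650 signal was 10.34 and 10.82 in the knockdown arrays, against 10.08 and 10.02 in the control arrays, a rise of 0.52 (SE 0.12, adjusted p = 0.00526). The H1993 change minus the H1693 change was -2.06 (adjusted p = 6.17e-05), and control cells of H1993 had 2.98 more OAS1 signal than control cells of H1693.

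All 4 probe sets of OAS1 were below 0 in H1993 and above 0 in H1650, where they reached 1.86, but in H1693 they ran from 0.08 to 1.53, with the brightest set at the top. OAS2 rose by 1.28 in H1650 and had overlapping arrays in the other lines, and OAS3 had overlapping arrays in every line. OASL, a relative without synthase activity, rose by 0.38 (SE 0.12, adjusted p = 0.0229) in H1650. Without knockdown replicate 2 of H1650 that was 0.25 with adjusted p = 0.15, and without control replicate 1 or 2 it was 0.42 with adjusted p = 0.052 and 0.34 with adjusted p = 0.102. ISG20, an exonuclease that degrades RNA, rose by 0.47 in H1693 and 0.47 in H1650.

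Among the antiviral GTPases, 3 of 5 rose in H1993, 1 in H1693 and 5 in H1650, against 18.9%, 17.1% and 36.7% of all genes. MX1, a dynamin-like GTPase that traps viral nucleocapsids, was 6.23 and 6.19 in H1993 knockdown arrays, against 4.62 and 4.83 in H1993 control arrays, a rise of 1.48 (SE 0.14, adjusted p = 3.91e-05) from a control level near background. H1693 values were 5.69 and 5.19 in the knockdown arrays, against 5.22 and 5.24 in the control arrays, and the arrays overlapped. H1650 gave 13.56 and 13.51 in the knockdown arrays, against 12.25 and 12.32 in the control arrays, a rise of 1.25 (SE 0.14, adjusted p = 5.43e-05) from one of the highest control levels of any member.

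GBP2, a guanylate-binding protein induced by interferon gamma, rose in every line. Its signal was 5.63 and 5.77 in H1993 knockdown arrays, against 4.90 and 4.50 in H1993 control arrays. The H1693 signal was 7.99 and 7.92 in the knockdown arrays, against 6.47 and 6.14 in the control arrays, and in H1650 8.34 and 8.17 in the knockdown arrays, against 7.47 and 7.45 in the control arrays. The changes were 1.00 (SE 0.14, adjusted p = 0.000456) in H1993, 1.65 (SE 0.14, adjusted p = 2.62e-05) in H1693 and 0.79 (SE 0.14, adjusted p = 0.000991) in H1650. Its second probe set gave larger changes in each line, of 1.79 in H1993, 2.20 in H1693 and 1.10 in H1650. GBP3 rose by 0.73 in H1993 and 0.78 in H1650 and changed by -0.21 in H1693. MX2 and GBP1 rose in H1650, by 1.23 and 1.28, and in no other line.

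IFI44 had the largest rise of any member in H1693 and was among the 2 largest in H1993. Its signal was 7.86 and 7.90 in H1993 knockdown arrays, against 5.78 and 6.22 in H1993 control arrays. H1693 gave 8.26 and 8.21 in the knockdown arrays, against 6.29 and 5.79 in the control arrays, and in H1650 12.58 and 12.45 in the knockdown arrays, against 10.81 and 10.96 in the control arrays. The changes were 1.88 (SE 0.17, adjusted p = 3.19e-05) in H1993, 2.20 (SE 0.17, adjusted p = 1.53e-05) in H1693 and 1.63 (SE 0.17, adjusted p = 3.63e-05) in H1650. These are 3.68-fold, 4.59-fold and 3.09-fold rises, with an adjusted p of 0.155 for a difference among lines. The 4 of its 6 probe sets that averaged at least 5 were above 0 in every line, at 0.56 to 1.96 in H1993, 1.02 to 2.28 in H1693 and 1.60 to 1.73 in H1650.

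IFI44L, its neighbour and paralogue, passed the threshold in H1993 and H1650 and not in H1693. It was 9.01 and 8.88 in H1993 knockdown arrays, against 7.22 and 7.38 in H1993 control arrays, a rise of 1.65 (SE 0.08, adjusted p = 1.41e-06). In H1693 it was 5.67 and 5.67 in the knockdown arrays, against 5.60 and 5.48 in the control arrays, a difference of 0.13 (adjusted p = 0.296) near background. In H1650 it was 10.91 and 10.84 in the knockdown arrays, against 7.80 and 7.93 in the control arrays, a rise of 3.01 (SE 0.08, adjusted p = 4.24e-08) or 8.06-fold, the largest of any member in any line. With the brightest set of IFI44L, the H1993 change exceeded the H1693 change by 1.52 (adjusted p = 4.1e-05). For IFI44 that difference was -0.32 (adjusted p = 0.403). A second bright probe set of IFI44L showed a larger H1693 change of 0.60, beside 1.55 for H1993 and 2.75 for H1650. The remaining set of IFI44L, which averaged under 5, had an H1693 change of -0.11. How far H1993 and H1693 differ for IFI44L thus depends on the probe set read.

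IFI6, a small membrane protein that limits apoptosis, was 8.02 and 8.14 in H1993 knockdown arrays, against 7.06 and 6.98 in H1993 control arrays. H1693 values were 9.14 and 9.20 in the knockdown arrays, against 7.78 and 8.21 in the control arrays, and in H1650 11.14 and 11.48 in the knockdown arrays, against 10.87 and 9.95 in the control arrays. Its rises of 1.06 (SE 0.25, adjusted p = 0.00917) in H1993, 1.17 (SE 0.25, adjusted p = 0.00564) in H1693 and 0.90 (SE 0.25, adjusted p = 0.0131) in H1650 had the widest standard error of any member. Without control replicate 2 of H1650 the change was 0.44 with adjusted p = 0.0779, and without knockdown replicate 2 it was 0.73 with adjusted p = 0.0837. In H1993 it was 1.00 with adjusted p = 0.0519 without knockdown replicate 2 and 1.02 with adjusted p = 0.0509 without control replicate 2. The H1693 change was 0.96 with adjusted p = 0.0515 without control replicate 1.

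IFI35, a cytoplasmic protein that pairs with NMI, was 11.58 and 11.63 in H1993 knockdown arrays, against 11.23 and 11.30 in H1993 control arrays. H1693 gave 10.99 and 10.99 in the knockdown arrays, against 10.09 and 10.06 in the control arrays, and in H1650 11.71 and 11.86 in the knockdown arrays, against 11.19 and 11.15 in the control arrays. It rose by 0.34 (SE 0.07, adjusted p = 0.00364) in H1993, by 0.91 (SE 0.07, adjusted p = 1.34e-05) in H1693 and by 0.62 (SE 0.07, adjusted p = 5.33e-05) in H1650. Its second probe set was above 0 in H1993 and H1693 but changed by -1.09 in H1650, where the mean of both sets was -0.24 with adjusted p = 0.0235. IFI27, a mitochondrial protein, rose by 0.30 (SE 0.11, adjusted p = 0.0404) in H1650 from a control mean of 14.09, and that call was lost when any H1650 array or either H1693 knockdown array was left out, with changes of 0.26 to 0.33.

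**Figure D3:**
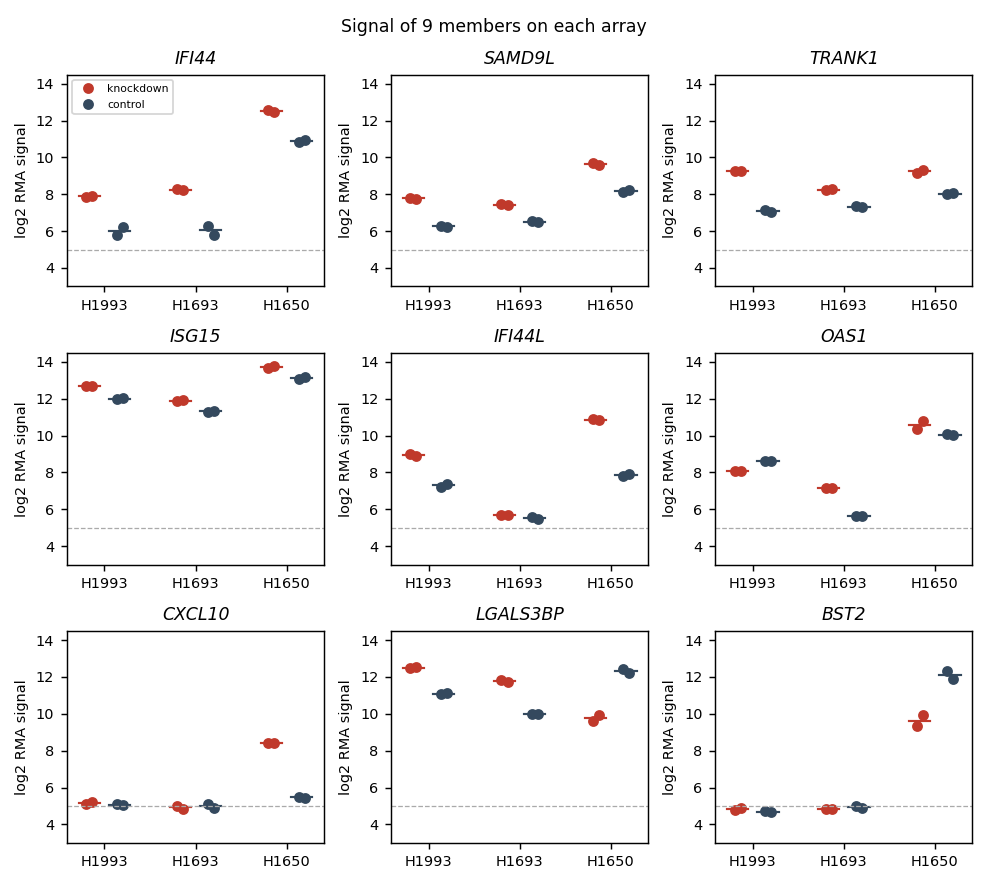
Log2 RMA signal (y axis) of 9 members on each of the 12 arrays, with knockdown (red) left of control (dark) in each line, short bars at group means and a dashed line at the log2 signal of 5. IFI44, SAMD9L, TRANK1 and ISG15 lie higher in knockdown arrays of every line, IFI44L rises in H1993 and H1650, OAS1 falls in H1993, CXCL10 rises in H1650 alone, and LGALS3BP and BST2 fall in H1650.

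The largest role group held 12 effectors of mixed function. Of these, 9 rose in H1993, 7 in H1693 and 10 in H1650, against 18.9%, 17.1% and 36.7% of all genes. LGALS3BP and BST2 fell in H1650, where 16.7% of all genes did. RSAD2, also called viperin, which makes a nucleotide that stops viral RNA synthesis, rose in every line. It was 6.40 and 6.14 in H1993 knockdown arrays, against 5.83 and 5.58 in H1993 control arrays. In H1693 it was 5.47 and 5.43 in the knockdown arrays, against 4.67 and 5.01 in the control arrays, and in H1650 8.74 and 8.82 in the knockdown arrays, against 7.30 and 7.65 in the control arrays. The changes were 0.57 (SE 0.15, adjusted p = 0.0154) in H1993, 0.61 (SE 0.15, adjusted p = 0.0107) in H1693 and 1.31 (SE 0.15, adjusted p = 6.44e-05) in H1650.

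The RSAD2 calls in the dimmer lines rested on few arrays. Without knockdown replicate 1 of H1993 its change was 0.44 with adjusted p = 0.112, and without control replicate 2 it was 0.44 with adjusted p = 0.11. Without knockdown replicate 1 of H1693 it was 0.59 with adjusted p = 0.0578, and without control replicate 1 it was 0.44 with adjusted p = 0.0914. Its second probe set was also above 0 in every line, at 1.55, 0.19 and 2.43 in H1993, H1693 and H1650.

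CMPK2, a mitochondrial nucleotide kinase whose gene lies next to RSAD2, did not pass the threshold in H1693. It was 8.30 and 8.06 in H1993 knockdown arrays, against 7.54 and 7.25 in H1993 control arrays, a rise of 0.78 (SE 0.13, adjusted p = 0.00106). H1693 values were 4.92 and 5.02 in the knockdown arrays, against 5.17 and 5.10 in the control arrays, a difference of -0.17 (adjusted p = 0.366) at the level of background. H1650 values were 10.43 and 10.15 in the knockdown arrays, against 7.79 and 7.92 in the control arrays, a rise of 2.43 (SE 0.13, adjusted p = 5.92e-07). The 3 probe sets of CMPK2 ran from 0.08 to 2.43 in H1650 and from -0.13 to 0.78 in H1993.

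SAMD9 and SAMD9L, paralogues that restrict poxviruses and slow cell growth, rose in every line. SAMD9 was 11.60 and 11.51 in H1993 knockdown arrays, against 10.26 and 10.21 in H1993 control arrays. The H1693 signal was 8.73 and 8.75 in the knockdown arrays, against 8.49 and 8.22 in the control arrays, and in H1650 12.22 and 12.04 in the knockdown arrays, against 10.99 and 11.28 in the control arrays. It rose by 1.32 (SE 0.12, adjusted p = 2.77e-05) in H1993, by 0.38 (SE 0.12, adjusted p = 0.0295) in H1693 and by 0.99 (SE 0.12, adjusted p = 7.36e-05) in H1650. The H1693 call was lost without knockdown replicate 1, without knockdown replicate 2 and without control replicate 2 of that line, with changes of 0.39, 0.37 and 0.25 and adjusted p of 0.0969, 0.121 and 0.224.

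SAMD9L was 7.80 and 7.77 in H1993 knockdown arrays, against 6.29 and 6.24 in H1993 control arrays. H1693 gave 7.45 and 7.40 in the knockdown arrays, against 6.54 and 6.49 in the control arrays, and in H1650 9.68 and 9.58 in the knockdown arrays, against 8.11 and 8.23 in the control arrays. It rose by 1.52 (SE 0.07, adjusted p = 6.96e-07) in H1993, by 0.91 (SE 0.07, adjusted p = 1.31e-05) in H1693 and by 1.46 (SE 0.07, adjusted p = 3.87e-07) in H1650. The arrays of a group lay close together beside any of the 3 changes, and its second bright probe set gave 2.05 in H1993, 1.32 in H1693 and 1.79 in H1650.

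DDX60, a helicase that aids the sensing of viral RNA, was 9.07 and 8.92 in H1993 knockdown arrays, against 8.32 and 8.43 in H1993 control arrays. In H1693 it was 7.02 and 7.09 in the knockdown arrays, against 6.47 and 6.18 in the control arrays, and in H1650 11.31 and 11.36 in the knockdown arrays, against 9.84 and 10.03 in the control arrays. It rose by 0.62 (SE 0.11, adjusted p = 0.00168) in H1993, by 0.73 (SE 0.11, adjusted p = 0.000699) in H1693 and by 1.40 (SE 0.11, adjusted p = 5.54e-06) in H1650. The rise in H1650 was about as large as those of SAMD9L and IFIT5 in that line.

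EPSTI1, named for its induction in epithelial cells beside stroma, was 5.92 and 5.86 in H1993 knockdown arrays, against 5.50 and 5.48 in H1993 control arrays. H1693 values were 5.83 and 5.69 in the knockdown arrays, against 5.23 and 5.17 in the control arrays, and in H1650 10.88 and 10.76 in the knockdown arrays, against 9.01 and 9.20 in the control arrays. It rose by 0.40 (SE 0.08, adjusted p = 0.00472) in H1993, by 0.56 (SE 0.08, adjusted p = 0.00078) in H1693 and by 1.71 (SE 0.08, adjusted p = 4.96e-07) in H1650. The H1993 and H1693 arrays were all under 6.

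TRANK1 had the largest rise in H1993. It was 9.27 and 9.26 in H1993 knockdown arrays, against 7.13 and 7.06 in H1993 control arrays, a change of 2.17 (SE 0.07, adjusted p = 2.42e-07) or 4.51-fold. The H1693 signal was 8.24 and 8.27 in the knockdown arrays, against 7.34 and 7.29 in the control arrays, a change of 0.94 (SE 0.07, adjusted p = 1.31e-05), and in H1650 9.17 and 9.33 in the knockdown arrays, against 8.0 and 8.07 in the control arrays, a change of 1.21 (SE 0.07, adjusted p = 1.05e-06). The H1993 change exceeded the H1693 change by 1.23 (adjusted p = 4.71e-05).

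LGALS3BP, a secreted glycoprotein that binds galectins, gave the smallest p of any member for a difference among lines (7.3e-07). It was 12.51 and 12.52 in H1993 knockdown arrays, against 11.06 and 11.15 in H1993 control arrays, a rise of 1.41 (SE 0.10, adjusted p = 8.74e-06). H1693 gave 11.84 and 11.74 in the knockdown arrays, against 9.98 and 9.99 in the control arrays, a rise of 1.81 (SE 0.10, adjusted p = 3.17e-06). The H1650 signal was 9.64 and 9.92 in the knockdown arrays, against 12.42 and 12.22 in the control arrays, a change of -2.54 (SE 0.10, adjusted p = 1.94e-07). The gene has 1 probe set, so no other set could be compared, and every array was above 9.

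BST2, or tetherin, which holds budding virus at the cell surface, was well above 5 in H1650 alone. There it was 9.31 and 9.94 in the knockdown arrays, against 12.30 and 11.91 in the control arrays, a change of -2.48 (SE 0.18, adjusted p = 4.1e-06). In H1993 it was 4.79 and 4.87 in the knockdown arrays, against 4.73 and 4.65 in the control arrays, and in H1693 4.85 and 4.84 in the knockdown arrays, against 5.02 and 4.87 in the control arrays. In H1650 its second bright probe set changed by -3.15, and its dimmer sets by -3.27 and -0.19.

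XAF1, a partner of the apoptosis inhibitor XIAP, was 11.44 and 10.70 in H1650 knockdown arrays, against 9.07 and 9.19 in H1650 control arrays, a rise of 1.94 (SE 0.20, adjusted p = 3.08e-05). In H1993 it was 6.02 and 5.86 in the knockdown arrays, against 6.03 and 5.89 in the control arrays, and in H1693 5.70 and 5.74 in the knockdown arrays, against 5.69 and 5.43 in the control arrays, with overlapping arrays in H1993. The mean over all 7 probe sets of XAF1 changed by 0.15 with adjusted p = 0.194 in H1650, and 5 of the 7 average under 5. The other set averaging at least 5 changed by 0.12 in H1650, so the rise there rests on the brightest set. PLSCR1, a phospholipid scramblase, rose by 1.12 in H1650 and by 0.25 in H1993, where the call was lost without knockdown replicate 1 (0.20), control replicate 1 (0.22) or control replicate 2 (0.28). RTP4 rose by 1.47 in H1650 and stayed under 5 elsewhere.

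Of the 4 genes for TRIM and nuclear body proteins, 2 rose and 1 fell in H1993, against 18.9% and 14.5% of all genes. By the brightest sets none passed the threshold in H1693, against 17.1% higher and 15.9% lower among all genes. In H1650, 3 rose, against 36.7% of all genes. SP100, a component of nuclear bodies that represses viral genomes, was 9.30 and 9.19 in H1993 knockdown arrays, against 9.64 and 9.61 in H1993 control arrays, a change of -0.38 (SE 0.07, adjusted p = 0.00221). In H1693 it was 10.04 and 10.12 in the knockdown arrays, against 9.93 and 9.86 in the control arrays, a difference of 0.18 (adjusted p = 0.0735). H1650 gave 11.59 and 11.51 in the knockdown arrays, against 10.50 and 10.47 in the control arrays, a rise of 1.06 (SE 0.07, adjusted p = 1.97e-06). In H1993 its 9 probe sets ran from -0.38, the brightest, to 1.15, and their mean gave an adjusted p of 0.99, while in H1693 and H1650 all 9 were above 0. The mean of the 9 sets changed by 0.43 in H1693, with adjusted p = 0.00117.

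TRIM21, a cytosolic antibody receptor, rose by 0.80 in H1993 and 0.97 in H1650, and SP110 by 0.76 and 1.23. In H1693 the brightest set of SP110 changed by 0.14 (adjusted p = 0.162), but the mean over its 5 sets by 0.44 with adjusted p = 0.00219. TRIM22 had overlapping arrays in every line by its brightest set. In H1650 its other sets ran up to 1.59, and the mean over its 6 sets changed by 0.87 with adjusted p = 1.81e-05, the opposite sign to the -0.11 of the brightest set.

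The chemokine genes CXCL10 and CXCL11, whose proteins attract T cells through CXCR3, changed in H1650 alone among the tests that passed. CXCL10 was 8.42 and 8.40 in H1650 knockdown arrays, against 5.51 and 5.42 in H1650 control arrays, a rise of 2.94 (SE 0.09, adjusted p = 6.56e-08) or 7.69-fold. In H1993 it was 5.08 and 5.22 in the knockdown arrays, against 5.10 and 5.04 in the control arrays, and in H1693 5.02 and 4.84 in the knockdown arrays, against 5.08 and 4.90 in the control arrays. Both pairs of groups overlapped at about 5, the level of background. CXCL11 rose by 1.68 (SE 0.11) in H1650, to a mean of 5.80 in knockdown arrays against 4.12 in control arrays, and stayed under 4 elsewhere. It passed the filter through the H1650 knockdown arrays alone.

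The members did not move by the same amounts in the 3 lines. For 34 of 45 members the change differed among the lines (F test, adjusted p under 0.05), against 54.9% of all genes tested. Of the 34, the change was highest in H1650 for 22, in H1993 for 8 and in H1693 for 4. The 34 include GBP1, BST2, RTP4 and CXCL11, which passed the filter through H1650, and the 22 include all of these but BST2. This split was not counted over all genes, whose median change was itself highest in H1650 (0.15, against 0.02 in H1993 and -0.02 in H1693). Between H1993 and H1693, whose RNA integrity was alike, the change differed for 18 of 45, against 22.1% of all genes. Across the 45 members the changes of H1993 and H1693 had a Pearson correlation of 0.42 and a Spearman correlation of 0.32, those of H1993 and H1650 0.10 and 0.15, and those of H1693 and H1650 -0.11 and 0.07. These are correlations across genes, which are not independent replicates, and the members were listed for their common induction.

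Control cells of the 3 lines differed in these genes before any knockdown. H1650 controls had the highest mean of the 3 for 41 of 45 members. Of all genes tested, 60.7% had a higher mean in H1650 than in H1693 controls and 60.7% a higher mean than in H1993 controls. The share above both was not counted. Against H1693 controls, H1650 controls were higher for 40 members and lower for 2, while 38.5% of all genes tested were higher and 24.5% lower. Against H1993 controls, they were higher for 41 and lower for 0, while 40.1% of all genes were higher and 23.7% lower. The median difference was 2.32 against H1693 and 1.81 against H1993, where the medians of all genes were both 0.12. Centring each array on its median moved the all-gene medians to -0.11 and -0.19 and all-gene counts to 4582 higher and 5744 lower against H1693 and 4603 higher and 6752 lower against H1993. It left 38 members higher and 3 lower against H1693, and 36 higher and 3 lower against H1993. Over the 41 members that did not depend on H1650 for the filter, H1650 controls were higher for 36 and lower for 2 against H1693, and higher for 37 and lower for 0 against H1993. These calls were not counted over all genes under the same restriction. The H1650 control arrays had a 3' minus 5' GAPDH difference of 2.68 and those of the other lines one near 0, and its part in the H1650 levels was not tested.

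The size of the gap varied widely among the members. In 25 of 45 members the H1650 control mean lay at least 2-fold above both other controls, in 16 at least 4-fold and in 3 at least 64-fold. Over the 41 members that did not need H1650 for the filter the counts were 22, 14 and 2 (53.7%, 34.1% and 4.88%), against 6.93%, 1.59% and 0.0441% of the 15878 genes that did not need it. The 3 were MX1, BST2 and IFI27, of which BST2 passed the filter through H1650. MX1 was 12.28 ± 0.04 in H1650 controls, 4.73 ± 0.15 in H1993 controls and 5.23 ± 0.01 in H1693 controls (SD, n = 2 each). BST2 was 12.11 ± 0.28 in H1650, 4.69 ± 0.06 in H1993 and 4.95 ± 0.10 in H1693 controls. IFI27 was 14.09 ± 0.05 in H1650, 6.98 ± 0.14 in H1993 and 7.03 ± 0.11 in H1693 controls. After the knockdown the H1993 mean still lay under the H1650 control mean for 35 of 45 members and the H1693 mean for 38. The same was not counted over all genes.

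**Figure D4:**
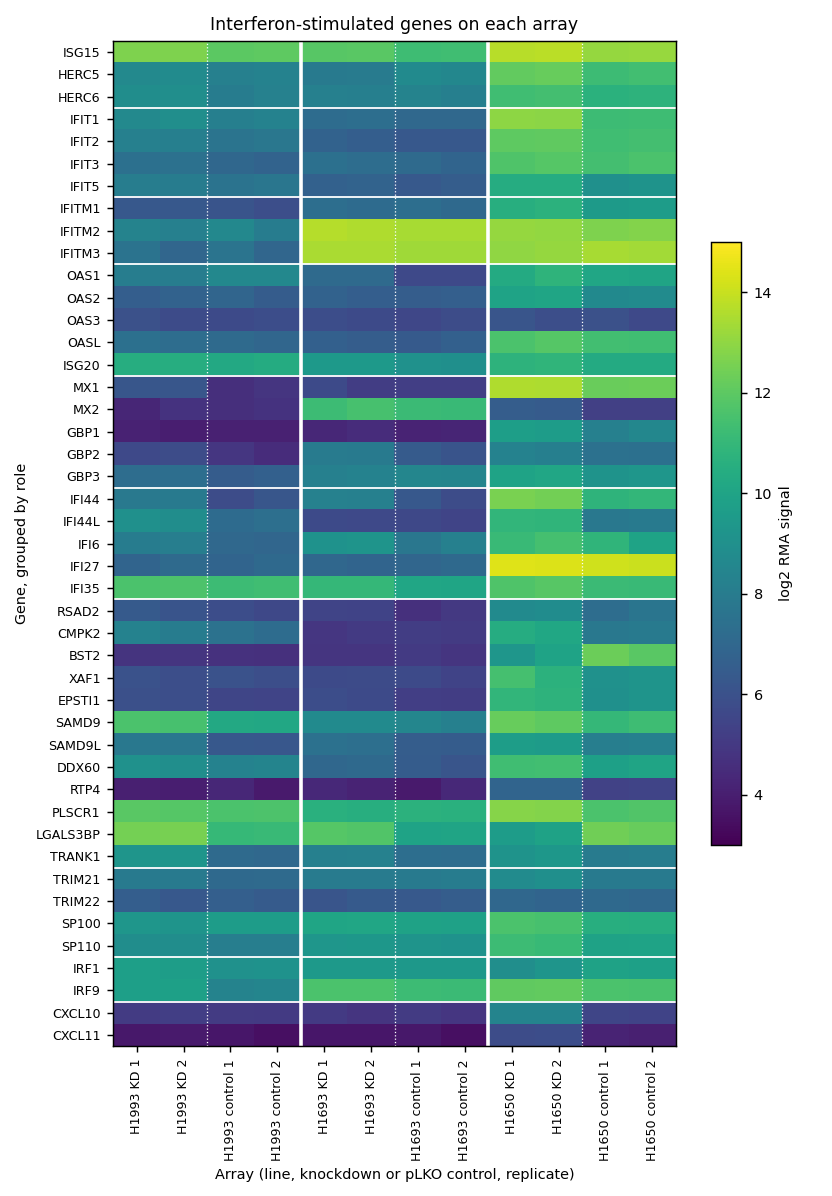
Log2 RMA signal (colour) of the 45 members, grouped by role (y axis), on each of the 12 arrays (x axis), with knockdown left of control in each line. The H1650 arrays are brightest for most members, and MX2, IFITM2 and IFITM3 stand out as bright in H1693.

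H1993 and H1693 controls differed from each other in both directions. H1993 controls were higher for 16 members and lower for 16, against 30.1% and 32.9% of all genes, with a median difference of -0.02. Downward the largest differences were MX2, IFITM3 and IFITM2. MX2, an MX protein at the nuclear envelope that restricts HIV, was 4.68 in H1993 and 11.15 in H1693 controls, a difference of -6.47, and it was 5.27 in H1650 controls. The adjusted p of the H1993 minus H1693 difference was 1.47e-10 for MX2, 3.14e-09 for IFITM3 and 8.81e-10 for IFITM2. IFITM3 was 7.28 in H1993 and 13.29 in H1693 controls, and IFITM2 was 8.32 and 13.45. MX2 in H1693 was 11.21 and 11.53 in the knockdown arrays, against 11.17 and 11.14 in the control arrays, a difference of 0.22 (adjusted p = 0.3). It was 6.55 and 6.46 in H1650 knockdown arrays, against 5.28 and 5.27 in H1650 control arrays, without overlap.

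Upward the largest differences between H1993 and H1693 controls were OAS1 (2.98), CMPK2 (2.26) and DDX60 (2.05). These genes did not then share a direction after knockdown in H1993, since OAS1 fell there while CMPK2 and DDX60 rose. IRF9 was 8.43 in H1993 controls, against 11.21 in H1693 and 11.57 in H1650 controls, and it had its largest rise in H1993.

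Several members could be read by more than 1 probe set. For 24 members with 2 or more sets averaging at least 5, the sets gave the same sign of change for 17 in H1993, 16 in H1693 and 16 in H1650. The median spread among sets of a gene was 0.15 (SD of log2 changes) in H1993, 0.19 in H1693 and 0.55 in H1650. Opposite signs were found in H1650 for the sets of IFIT2, IFITM2, IFI35, GBP1, SP110, TRIM22, IRF1 and IRF9. The 3' minus 5' difference in that line was 6.82 in knockdown and 2.68 in control arrays, and the position of the sets along their transcripts was not used here.

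**Figure D5:**
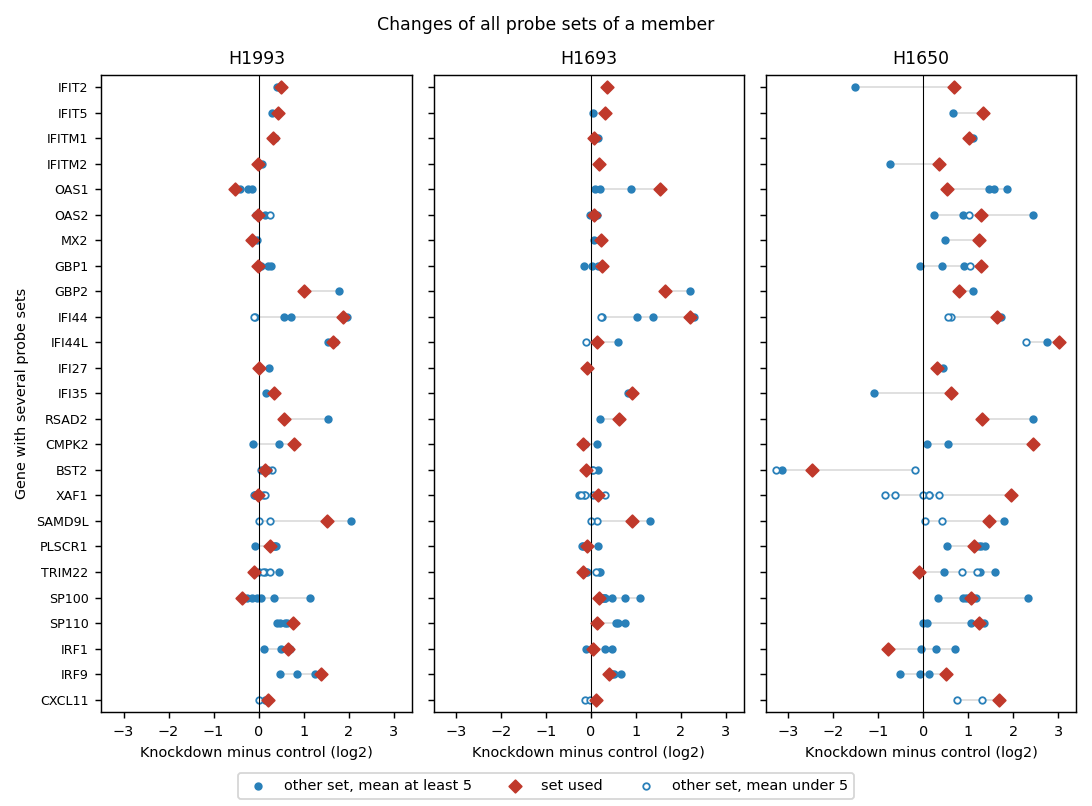
Log2 change, knockdown minus control (x axis), of every probe set of the 25 members with several sets (y axis), with the set used as a red diamond, other sets averaging at least 5 as filled points and dimmer sets as open points, in H1993, H1693 and H1650. The sets lie close together in H1993 and H1693 for most genes and spread most in H1650, where IFIT2 runs from -1.52 to 0.68 and IFI35 from -1.09 to 0.62.

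A further list of 42 interferon-stimulated genes outside the members was counted in the same way, and 39 of the 42 were tested. In H1993, 20 rose and 2 fell, against 18.9% and 14.5% of all genes, with a median change of 0.37 against 0.02 for all genes. In H1693, 15 rose and 4 fell, against 17.1% and 15.9%, with a median of 0.22 against -0.02. In H1650, 25 rose and 8 fell, against 36.7% and 16.7%, with a median of 0.44 against 0.15. The 8 that fell in H1650 are a share near that of all genes. The list was written with earlier results of these data known. LAMP3, a lysosomal membrane protein, had the largest rise of the list in every line. Its signal was 8.10 and 8.13 in H1993 knockdown arrays, against 6.55 and 6.57 in H1993 control arrays, a change of 1.56 (SE 0.07, adjusted p = 8.75e-07). H1693 values were 11.36 and 11.41 in the knockdown arrays, against 8.92 and 8.85 in the control arrays, a change of 2.50 (SE 0.07, adjusted p = 1.73e-07), and in H1650 11.05 and 11.04 in the knockdown arrays, against 8.64 and 8.84 in the control arrays, a change of 2.30 (SE 0.07, adjusted p = 8.61e-08).

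UBE2L6, the conjugating enzyme for ISG15, rose by 1.19 in H1993, by 0.59 in H1693 and by 0.73 in H1650. PARP9 and PARP14, members of the ADP-ribosyltransferase family, rose by 0.89 and 0.68 in H1993, 0.71 and 0.64 in H1693, and 1.29 and 1.25 in H1650. IFI16, a DNA sensor, was under 5 in H1993 and H1693 and rose by 1.92 in H1650. LY6E, MOV10 and PARP12 fell in H1650, with changes of -1.50, -1.42 and -1.06. WARS1, a tRNA synthetase induced by interferon gamma, rose by 1.02 in H1693 and fell in H1993 and H1650, with changes of -0.53 and -0.63.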

How the data were processed

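Biotin-labelled cRNA from 12 cultures was hybridised to Affymetrix PrimeView arrays, 2 for each of 6 groups. The authors deposited one table of log2 RMA signals for 49395 probe sets, and the submitters' processing notes name RMA and Affymetrix Expression Console without versions. A difference of 1 in these log2 values is 2-fold, and RMA compresses differences between dim signals.

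Of the probe sets, 44988 had 1 gene symbol in the platform annotation, 1832 had several and 2569 none, and only the first kind was used. The brightest set by mean signal stood for its gene. Genes at log2 5 or more on at least 2 arrays entered the test (16205). limma 3.58.1 (lmFit and eBayes, R 4.3.3) estimated the 6 group means from all 12 arrays in one model. Tests were two-sided, p-values were adjusted by Benjamini-Hochberg over every gene that entered, and 0.05 was the threshold. Standard errors come from this model, with 6 residual and 3.52 prior degrees of freedom, so the number of arrays limits the precision. The steps were tested on simulated data, and figures were drawn with matplotlib 3.10.9 in Python 3.11.15.

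The members and gene lists were chosen with earlier results of these data known. Values on every array are given for members that passed the threshold in the same direction in all 3 lines, for the 5 largest rises and up to 3 largest falls in each line without overlap between groups, for the 6 members with the smallest p in the F test and for the 3 largest differences in each direction between H1993 and H1693 controls. From each pathway list the rule took up to 4 genes past the threshold with the largest changes in each line, and other genes named from these lists were chosen after their values were seen.

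Arrays of a group correlated at 0.995 to 0.998, and 0.0526% to 0.0992% of their values were identical. Promoter sequences came from a RefSeq table of GRCh38.p14 that held 39 of the 47 members, matched by symbol. The alternatives were other probe set rules, filters, scalings, variance models, sets of arrays, a fold minimum and replicate blocks.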

Additional observations from a re-analysis of the deposited data

Results flagged for a closer look

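For 34 of the 45 tested members the knockdown change differed among the 3 lines by limma's F test, with p adjusted over all 16205 genes, of which 54.9% differed. The design has 2 arrays a group, and H1650 knockdown and control arrays differed in RNA integrity, whose part in these differences was not tested. The adjusted p was 7.3e-07 for LGALS3BP, 1.31e-06 for CXCL10, 1.39e-06 for IFI44L, 1.21e-05 for SP100, 1.3e-05 for CMPK2, 2.22e-05 for HERC5, 2.44e-05 for TRANK1 and 3.15e-05 for IRF9.

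It was 4e-05 for EPSTI1, 4.02e-05 for IFIT1, 4.31e-05 for PLSCR1, 4.32e-05 for OAS1, 5.72e-05 for BST2, 5.78e-05 for CXCL11, 5.89e-05 for SP110 and 9.28e-05 for IRF1. A further set of values was 0.000108 for TRIM21, 0.000154 for GBP3, 0.000199 for IFIT5, 0.000226 for GBP1, 0.000469 for XAF1, 0.000592 for OAS2, 0.000785 for HERC6 and 0.000863 for MX2. The remaining values were 0.000946 for MX1, 0.00101 for SAMD9L, 0.00102 for IFITM1, 0.00151 for RTP4, 0.0025 for IFI35, 0.00264 for SAMD9, 0.00357 for DDX60, 0.0112 for GBP2, 0.0221 for RSAD2 and 0.0426 for ISG20.

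Signs were opposite, each past the threshold, for HERC5, OAS1, LGALS3BP, SP100 and IRF1. Among these genes, H1650 had the lowest change for LGALS3BP and IRF1, H1993 for OAS1 and SP100, and H1693 for HERC5. With the mean of all probe sets of a gene, the H1650 change of IRF1 had adjusted p = 0.751. The H1993 change of SP100 had adjusted p = 0.99 in that setting. H1993 and H1693, the lines of like RNA integrity, were also compared by the brightest set of each gene. The H1993 change was above the H1693 change by 1.52 for IFI44L (adjusted p = 4.1e-05) and 1.28 for MX1 (adjusted p = 0.00166). For OAS1 the difference was -2.06 (adjusted p = 6.17e-05).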

How the results depend on the processing

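Requiring a change of at least 1.5-fold left 18 members higher and 0 lower in H1993, 10 higher in H1693 and 10 lower in H1993 controls against H1693 controls. With the mean of all probe sets of a gene, 1 member was lower in H1993 and 1 in H1650 controls against H1993 controls, and the median changes were 0.40 in H1993 and 0.90 in H1650. The same setting turned the H1650 change of IFIT2 to -0.42, of IFI35 to -0.24, of TRIM22 to 0.87 and of IRF1 to 0.040. Quantile normalization gave 2 members lower in H1650 against H1993 controls and medians of 0.37 in H1993 and 0.93 in H1650. Centring gave 3 members lower in that control comparison, 2 lower in H1693 and a median of 0.36 in H1993. Array weights, and only the 4 arrays of the line, each gave 2 lower in H1693. A minimum of log2 6 gave a median of 0.51 in H1993, and so did leaving out the 4 members that need H1650 arrays to pass the filter, which was chosen after seeing the data. The cause of these moves was not tested.

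With 1 array left out at a time, the median change of the members was 0.43 to 0.44 in H1993, 0.18 to 0.22 in H1693 and 0.93 to 1.07 in H1650. Where a lone array stood for its group, its spread was taken from the other groups. Counts of members past the threshold are not given for these fits, since the counts over all genes moved with the array left out.

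Same-numbered knockdown and control arrays deviated from their group means with correlations of 0.29 in H1993, -0.18 in H1693 and -0.11 in H1650. The labels do not say whether the numbers pair the arrays, and these correlations cannot settle it. With a replicate block, 27 members were higher and 2 lower in H1993, 18 and 1 in H1693, and 39 and 4 in H1650. Over all 16205 genes this block gave 2756 higher and 2078 lower in H1993, and 2502 and 2343 in H1693. In H1650 the block gave 5780 and 2618. The H1693 call of SAMD9, a member higher in all 3 lines, and the H1993 call of PLSCR1 were not made with it (adjusted p = 0.0630 and 0.0617). The crossed replicate block in H1693 and H1650, chosen after seeing the data, gave 28 and 2, 18 and 1, and 38 and 4. Over all genes the crossed block gave 3183 and 2505 in H1993, 2878 and 2753 in H1693, and 6254 and 2758 in H1650.

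Over all alternatives, 17 of 30 calls in H1993, 9 of 19 in H1693 and 30 of 40 in H1650 were never lost. Of the 14 members that rose in all 3 lines, 5 kept every call under every alternative (GBP2, IFI44, SAMD9L, DDX60 and TRANK1).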
